A study of Mus musculus with 4 samples.

Results

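C1q-positive tumour macrophages were 1462 of 14198 cell barcodes that passed the quality filter (10.3%, exact binomial 95% interval 9.80 to 10.8) in single-cell RNA counts from mouse colon tumours. They were chosen by their own counts of UMIs, tags that each mark a captured RNA molecule. A passing barcode held at least 500 UMIs, at least 200 genes and at most 20% mitochondrial UMIs. It was a member when C1qa, C1qb and C1qc together took at least 0.1% of its UMIs, S100a8 and S100a9 together took less than 0.2%, and Cd3e, Cd79a and Epcam were at 0. The levels of these genes chose the members and are given only as a description. Of 2240 passing barcodes that reached the C1q limit, 778 were left out: 555 for the neutrophil genes S100a8 and S100a9, 79 for the T cell gene Cd3e, 117 for the B cell gene Cd79a and 139 for the epithelial gene Epcam, with 104 failing more than 1 of these clauses.

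The tumours grew in female C57BL/6 mice given azoxymethane, a carcinogen, at 12.5 mg/kg, then 3 cycles of dextran sulphate sodium, which inflames the colon (5 days a cycle, at 2.5%, 2.5% and 2%), and 30 days separated the end of that course from tissue collection. The labels name 4 groups of 1 sample each: CD45+ immune and CD45- non-immune cells from Egfr fl/fl mice, which carry a floxed allele of the receptor and served as controls, and the same pair of sorts from EgfrΔMYL mice, in which Egfr was deleted in the myeloid lineage. All 4 groups had the carcinogen and the colitis agent. The labels name neither the Cre driver of the deletion nor the number of animals behind a sample. All counts are in 1 matrix. Each barcode carries a suffix from 1 to 4 whose sample is not stated, so genotypes and sorts could not be compared. Barcodes with the same suffix are called a library below, each library's value stands alone, and with no replicates no p-value is given.

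C1q is the recognition part of the classical complement pathway. It is built from A, B and C chains and is made largely by macrophages, where it marks dying cells and immune complexes for uptake. In the colon wall, monocytes that arrive from blood carry Ly6C and CCR2, and as they mature into macrophages they lose these and gain MHC class II, F4/80 (Adgre1), CX3CR1 and C1q. Tumour macrophages of the C1q type are known for antigen presentation, lipid handling and clearance of dead cells, and are often set against a second state marked by osteopontin (Spp1) or arginase (Arg1).

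Members were unevenly spread over the libraries. Libraries 1 and 2 held 4 and 10 members, or 0.673% and 0.586% of their passing barcodes. Library 3 held 380 (8.41%, 7.62 to 9.26) and library 4 held 1068 (14.5%, 13.7 to 15.3). A sort on CD45 can set such shares, and which library came from which sort is not known. Members were deep: their median was 11852 UMIs (501 to 60257) and 3005.5 genes, against a median of 4682 UMIs in the other passing barcodes. Among members, 64 met the C1q limit with 1 C1q UMI and 82 with 2 to 5, and 114 had fewer than 1000 UMIs. Across suffixes, 24 of 18002 barcode sequences occurred more than once, and 5 members carried such a sequence. The combined C1q share had a median of 1.26% (quartiles 0.536% and 1.76%, highest 4.01%).

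Marker genes matched the label in most respects. Summed over members, C1qa stood at 5450.0 CPM (UMIs scaled to a total of 1000000), C1qb at 5075 CPM and C1qc at 3362 CPM, which the rule fixes. Another 3 markers that the rule did not use were also high. Pf4, which encodes the platelet-type chemokine CXCL4, stood at 888 CPM (exact Poisson interval 875 to 902) against 106 CPM in all other passing barcodes. Ms4a7, a membrane protein of macrophages, stood at 1021 CPM (1006 to 1035) against 117 CPM. Apoe, the lipid carrier apolipoprotein E, stood at 23050.2 CPM (22981 to 23119) against 2772 CPM. The wider macrophage set went the same way: Csf1r, the receptor for the macrophage growth factor CSF1, was at 809 against 136 CPM, and Mertk, a receptor for dying cells, at 60.7 against 7.78 CPM. Several genes of long-lived resident macrophages were at or near 0, with Lyve1 at 0.321 CPM, Vsig4 at 0.643 CPM, Cd163 at 1.18 CPM and Timd4 at 2.52 CPM. No member held a UMI of Cd5l. These genes come from a list of 16 scavenger and uptake receptors given below. Of that list 9, Mrc1 and Stab1 among them, were at least 2-fold higher in members, and 1, Timd4, was lower. Retnla, of the list of regulatory and repair mediators, also had no UMI in any member.

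These levels were alike in the 2 libraries that hold nearly all members. Apoe was at 24009 CPM in the members of library 3 and 22653 CPM in those of library 4, Ms4a7 at 1042 and 1013 CPM, Csf1r at 829 and 801 CPM. Pf4 differed more, at 1201 CPM (1172 to 1230) in library 3 and 753 CPM (738 to 768) in library 4. In library 1, with 4 members and 4194 UMIs in all, Apoe was at 41488 CPM (35552 to 48131) and Ms4a7 rested on 2 UMIs. In library 2, with 10 members, Apoe was at 13451 CPM (12009 to 15019) and Ms4a7 at 553 CPM (295 to 946). The intervals cover counting error only.

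**Figure D1:**
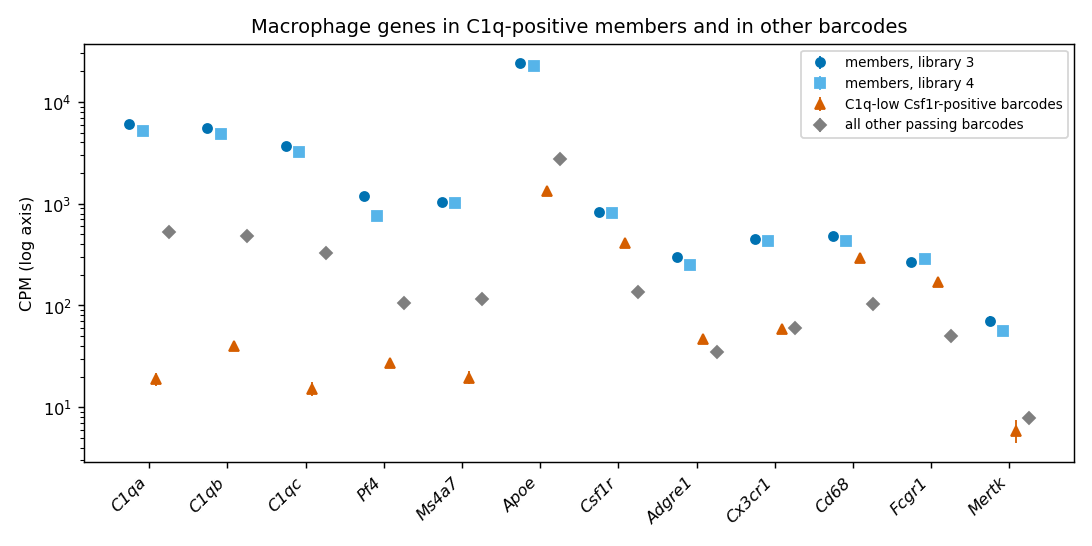
Levels of 12 macrophage genes in CPM (log axis) in the members of library 3 and library 4, in C1q-low Csf1r-positive barcodes and in all other passing barcodes. Bars are exact Poisson 95% intervals for counting error. Both member libraries lie above the other barcodes for each gene. The gap to C1q-low Csf1r-positive barcodes is wide for Ms4a7 (1021 against 19.6 CPM). It is narrower for Csf1r (809 against 408 CPM), of which each C1q-low barcode had to hold at least 1 UMI.

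The members shade into their neighbours at the C1q limit. The 50 members just inside it (0.101 to 0.133% C1q) had Apoe at 1456 CPM, Ms4a7 at 34.7 CPM and Pf4 at 58.9 CPM. The 50 barcodes just outside (0.0710 to 0.0988%) had 1333, 46.2 and 25.6 CPM. Around the limit on S100a8 and S100a9 the 50 barcodes inside had Apoe at 21954 CPM and Ms4a7 at 834 CPM, and the 50 outside had 26067 and 1088 CPM. Pf4 stood at 991 CPM inside that limit and 1535 CPM outside. Apoe and Ms4a7 thus differed little across either edge, and the 468 barcodes that met the rule except for S100a8 and S100a9 had Apoe at 23756 CPM and Ms4a7 at 1053 CPM.

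The marker genes lie on 5 mouse chromosomes (build mm10). The C1q genes stand side by side on the minus strand: C1qb at chr4:136880129-136886187, C1qc at chr4:136889804-136893065 and C1qa at chr4:136895917-136898803. Pf4 lies at chr5:90772435-90773383 on the plus strand, Ms4a7 at chr19:11321039-11336146 and Apoe at chr7:19696109-19699188 on the minus strand, and Mrc1, the mannose receptor used further below to divide the members, at chr2:14229392-14332057 on the plus strand. The 250 bases before the most upstream RefSeq start of each gene (GRCm38.p6) are printed because these genes were high together in the members. Their windows are C1qb chr4:136886201-136886450 (minus), Pf4 chr5:90772185-90772434 (plus), Ms4a7 chr19:11336147-11336396 (minus), Apoe chr7:19699189-19699438 (minus) and Mrc1 chr2:14229164-14229413 (plus). Capitals mark matches, on either strand, to GAGGAA, the core of the PU box bound by the myeloid factor PU.1 (Spi1), or to TGCTGA, a core of the site of MAF factors.
C1qb: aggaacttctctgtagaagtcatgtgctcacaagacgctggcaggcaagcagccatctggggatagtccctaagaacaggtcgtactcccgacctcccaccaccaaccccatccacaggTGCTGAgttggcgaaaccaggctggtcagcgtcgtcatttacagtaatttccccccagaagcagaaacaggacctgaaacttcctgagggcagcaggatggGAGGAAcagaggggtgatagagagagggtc
Pf4: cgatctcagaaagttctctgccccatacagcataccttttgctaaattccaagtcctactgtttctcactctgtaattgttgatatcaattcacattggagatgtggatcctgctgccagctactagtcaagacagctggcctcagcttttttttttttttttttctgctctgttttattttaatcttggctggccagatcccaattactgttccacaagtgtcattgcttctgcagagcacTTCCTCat
Ms4a7: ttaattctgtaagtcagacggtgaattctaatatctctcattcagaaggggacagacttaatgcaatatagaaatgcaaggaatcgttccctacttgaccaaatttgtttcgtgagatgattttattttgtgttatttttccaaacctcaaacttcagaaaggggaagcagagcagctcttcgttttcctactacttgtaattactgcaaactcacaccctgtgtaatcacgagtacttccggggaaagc
Apoe: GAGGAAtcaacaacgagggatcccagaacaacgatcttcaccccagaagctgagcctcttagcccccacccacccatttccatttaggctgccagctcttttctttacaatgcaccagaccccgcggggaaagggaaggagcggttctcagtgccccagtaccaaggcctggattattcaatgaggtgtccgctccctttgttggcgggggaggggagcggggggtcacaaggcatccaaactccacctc
Mrc1: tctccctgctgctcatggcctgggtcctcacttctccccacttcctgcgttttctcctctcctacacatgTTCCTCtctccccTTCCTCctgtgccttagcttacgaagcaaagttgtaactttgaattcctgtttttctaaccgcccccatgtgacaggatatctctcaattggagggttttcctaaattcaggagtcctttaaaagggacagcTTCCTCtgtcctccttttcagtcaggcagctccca
C1qb has the MAF core at bases -131 to -126 and the PU box core at -30 to -25 from its start. Pf4 has the PU box core on the opposite strand at -8 to -3, Apoe at -250 to -245 on its own strand, and Mrc1 has 3 on the opposite strand, at -180 to -175, -167 to -162 and -35 to -30. Ms4a7 has neither. C1qc has the PU box core on the opposite strand at -193 to -188, and C1qa has no entry. Over the 27025 genes of the RefSeq table, 23.1% had GAGGAA and 15.8% TGCTGA in the same window. Of the 25 genes named below as highest in members, 19 had an entry and 13 of these (68.4%) had GAGGAA, 4 (21.1%) TGCTGA and 1 (Hebp1, 5.26%) the E-box CACGTG, which 6.04% of all genes had. The 6 without an entry were Adamdec1, Adgre1, Col14a1, Gdf3, Mmp2 and Vcam1. Among the genes named as highest and lowest against C1q-low barcodes, 5 of 10 and 4 of 13 had GAGGAA. A match is a run of letters and not evidence of binding.

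Against all other passing barcodes, members had more RNA of macrophage, lysosomal, complement and antigen presentation genes and less of lymphoid, neutrophil and epithelial genes. The rule places barcodes with Cd3e, Cd79a, Epcam or much S100a8 and S100a9 among the others. Lower lymphoid, neutrophil and epithelial RNA was therefore set in part by the choice of members. The epithelial difference was also mostly one between libraries. The epithelial genes named below had log2 ratios from -6.53 to -5.91 pooled. Within libraries 3 and 4, which hold nearly all members, they ran from -1.96 to 0.19. With a minimum of 10 UMIs on either side, 17273 genes were compared. Calling 2-fold differences, 969 (5.61%) were higher in members and 2617 (15.2%) lower, and the median log2 ratio over all of them was -0.14. Ratios are of CPM with 1 CPM added to each side. The other barcodes include the 778 that reached the C1q limit and were left out, so they carry some of the same RNA: C1qa was at 529 CPM there. Against only those other barcodes without a C1q UMI, 1171 genes were higher and 3006 lower.

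The 25 genes with the highest ratios include several secreted and matrix proteins. Olfml3, an olfactomedin-like matrix protein, led with 149 against 14.8 CPM, a log2 ratio of 3.25 (counting SE 0.044). Adamdec1, a secreted metalloprotease of gut macrophages, stood at 214 against 23.2 CPM (3.15, SE 0.036). The other secreted or matrix products among the 25 were Col14a1 (a collagen chain), Gdf3 (a growth factor of the TGF-beta family), the proteases Mmp2 and Mmp12, and the chemokines Ccl12 and Pf4. Uptake and signalling receptors made up much of the rest. Fcrls, a scavenger receptor related to Fc receptors, was at 107 against 11.3 CPM (3.14, SE 0.050), and Axl, a receptor for dying cells, at 253 against 32.4 CPM (2.92, SE 0.032). Trem2, a lipid-sensing receptor, Mgl2 and Mrc1, lectins, Lilra5, Tlr12, Vcam1, Itga9, Adgre1 and C3ar1, the receptor for the complement fragment C3a, had log2 ratios from 2.84 to 3.12. Ptgs1 (an enzyme of prostaglandin synthesis), Rab3il1, H2-M2 (a class Ib MHC gene), Hebp1 (a haem-binding protein), Ms4a7 and Apoe complete them. All 25 were at least 2-fold higher within library 3 and within library 4, with ratios from 2.74 to 3.52 and from 2.27 to 2.86. Without library 4, 19 of the 25 moved by more than 1.5-fold, all upward, and the range became 2.95 to 4.04. Library 4 holds 377 of the 468 left-out C1q-positive barcodes with S100a8 or S100a9. Their part in this rise, and that of other differences in make-up between the libraries, was not tested.

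Most macrophage identity genes were higher in members. By the 2-fold rule 12 of 14 were higher in members and none lower, with a median log2 ratio of 2.55. Cx3cr1, the fractalkine receptor, was at 437 against 60.4 CPM and Fcgr1, the high-affinity IgG receptor, at 282 against 49.9 CPM. The 2 that fell short of 2-fold were Itgam (180.0 against 100.2 CPM) and Spi1 (413 against 213 CPM), both shared with other myeloid cells.

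Lysosomal genes were higher nearly throughout, with 16 of 18 at least 2-fold higher, none lower and a median of 1.91. Ctsb and Ctsc, cathepsin proteases, stood at 2384 against 541 CPM and at 2151 against 364 CPM. Lgmn, the asparagine protease legumain, stood at 1219 against 179.5 CPM (log2 ratio 2.76), and Psap, the precursor of lipid-hydrolase activators, at 3238 against 878 CPM. Lamp2 (0.43) was among the exceptions.

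MHC class II genes split largely by role. In this list of 13 genes, 7 were higher, 2 lower, and the median was 1.19. Most of the chains and chaperones that present peptides were high, H2-DMb2 apart. Cd74, the invariant chain, stood at 27063 against 7218 CPM and H2-Ab1 at 7529.6 against 1794 CPM (log2 ratio 2.07). H2-Oa and H2-Ob, which restrain peptide exchange and are typical of B cells, were lower, at 10.8 against 43.2 CPM and 5.57 against 42.0 CPM. Cd86, a costimulatory ligand, was at 215 against 93.6 CPM (1.19), while Cd80, Cd40, Ciita and H2-DMb2 differed by less than 2-fold. Against 242 barcodes with at least 1 UMI each of the dendritic gene Flt3 and of H2-Ab1 and none of C1q, no gene of the list was 2-fold higher in members and 5 of 12 were lower (over all genes 15.8% were higher and 8.31% lower). H2-Ab1, used to choose those barcodes, was at 4977 CPM in them and Cd74 at 17253 CPM.

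Among complement genes outside the rule, 9 of 15 were higher and 1 lower, with a median of 1.49 (0.50 against the C1q-low Csf1r-positive barcodes described below). The receptor C3ar1 was at 223 against 30.2 CPM (2.84) and Cfp, properdin, which stabilises the alternative pathway, at 364 against 104 CPM (1.80). The proteases that bind C1q and the next step of its pathway had few UMIs. C1ra was at 6.16 CPM, C1s1 at 0.375 CPM, from 7 UMIs, C2 at 1.39 CPM and C4b at 17.5 CPM. Serping1, the C1 inhibitor, was at 0.482 against 3.71 CPM and was the gene counted as lower.

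Scavenger and uptake receptors were divided between abundant and nearly absent genes. By the 2-fold rule 9 of 16 were higher and 1 lower (median 1.13), and 13 passed the minimum of 10 UMIs. Mrc1 was at 377 (368 to 386) against 50.5 CPM, Stab1, a receptor for modified lipoproteins, at 301 against 42.0 CPM and Msr1, scavenger receptor A, at 330.4 against 61.8 CPM. Folr2, a folate receptor of perivascular macrophages, was at 15.9 against 1.88 CPM, with 26.6 CPM in library 3 and 11.1 CPM in library 4. Timd4, counted as lower, was at 77.4 CPM in the Flt3-positive dendritic barcodes. Axl, a receptor for dying cells, was at 253 against 32.4 CPM, Cd36 at 26.7 against 7.59 CPM and Scarb1 at 25.5 against 11.4 CPM. Marco, at 2.25 CPM, Colec12, at 2.63 CPM, and Cd209f and Cd209g, with 2 UMIs each, were rare.

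Of 16 lipid-associated genes, 9 were higher and 1 lower (median 1.18, and 0.08 against the C1q-low Csf1r-positive barcodes described below). Trem2 was at 229 against 29.4 CPM, Lpl, lipoprotein lipase, at 69.2 against 10.4 CPM and Cd63, a membrane protein of endosomes, at 1078 against 266 CPM. Gpnmb, often named with Trem2, was at 12.9 against 9.45 CPM, and Spp1, osteopontin, at 490.0 against 253 CPM, both short of 2-fold. Fabp4, a fatty acid carrier, was lower, at 2.89 against 10.1 CPM. In the iron list 7 of 12 were higher and 1 lower (median 1.17), with Trf, transferrin, at 508 against 114 CPM and its receptor Tfrc at 7.61 against 25.8 CPM.

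Signals to other cells were mixed. Of 22 chemokines, 9 were higher and 6 lower (median 0.73). Ccl8 and Ccl12, chemokines of the CC family, were at 493 against 82.1 CPM and at 250.3 against 32.3 CPM, and Cxcl16 at 777 against 194 CPM. Cxcl2 and Cxcl3, which attract neutrophils, were lower, at 3624 against 7839.6 CPM and 323 against 1012 CPM. Of 18 regulatory and repair mediators, 10 were higher and 1 lower (median 1.11), among them Igf1 at 55.7 against 12.1 CPM, Pdgfc at 20.4 against 3.67 CPM and the collagenase Mmp13 at 223 against 33.5 CPM. Il10 was at 21.1 against 9.37 CPM. Of 12 checkpoint and T cell contact genes, 3 were higher (Vsir, Sirpa and Siglec1) and 1 was lower (Nectin2), and Cd274, which encodes PD-L1, was at 150.3 against 229.6 CPM.

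Among monocyte genes 5 of 12 were lower and none higher, with a median of -0.78. Ly6c2 was at 18.3 against 171 CPM and Plac8 at 211 against 728 CPM. Of 12 inflammatory genes, 2 were lower (Acod1 and Il6), near the 15.2% of all genes called lower, and none was higher. Their median of -0.53 turned to 0.21 without library 4. Il1b stood at 5100.5 against 6681 CPM, and it was at 30256 CPM in 1853 neutrophil-gene barcodes (S100a8 and S100a9 at least 1% of UMIs, median depth 2926 UMIs). Against the latter alone, where 7210 of 12400 genes were higher in members (58.1%) and 1129 lower (9.1%), 8 of the 12 inflammatory genes were lower and 1, Il12b, was higher. The lists of interferon-stimulated, glycolysis and dividing-cell genes had medians of 0.02, 0.23 and -0.04.

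The EGFR family was nearly silent on the receptor side. Egfr, the gene deleted in the study (chr11:16752203-16918158), had no UMI in any member of any library, where 3 counts allow 0.161 CPM. It was at 3.76 CPM in the other passing barcodes, so it was at least 23.4-fold lower in members. Those barcodes include the Epcam-positive ones and nearly all of libraries 1 and 2, and their part in this difference was not tested. The labels do not say which exons the deletion removed, and members of both genotypes may be pooled, so these Egfr levels say nothing about the deletion. Erbb2 had 3 UMIs, Erbb3 stood at 1.18 CPM and Erbb4 had none. In this list of 16 genes, 3 were higher and 7 lower in members. The higher ones were the ligand Nrg1, neuregulin, which binds ERBB3 and ERBB4, at 81.3 (77.3 to 85.5) against 32.8 CPM, the sheddase Adam17 at 104 against 40.6 CPM, and the ligand Ereg at 3.75 against 1.08 CPM, mostly from library 4 (5.13 CPM, against 0.539 CPM in library 3). Of the EGFR ligands other than Ereg, 4 were lower: Areg, amphiregulin, at 67.2 against 154 CPM, Hbegf at 11.8 against 30.3 CPM, and Tgfa and Btc at 1 and 2 UMIs. After each barcode was thinned to 1000 UMIs, 6.82% of members held an Nrg1 UMI (25.9% before thinning), against 13.6% of C1q-low Csf1r-positive barcodes and 0.506% of Cd79a-positive ones, a B cell set that should lack it (median depths 11852, 11118 and 4289 UMIs).

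**Figure D2:**
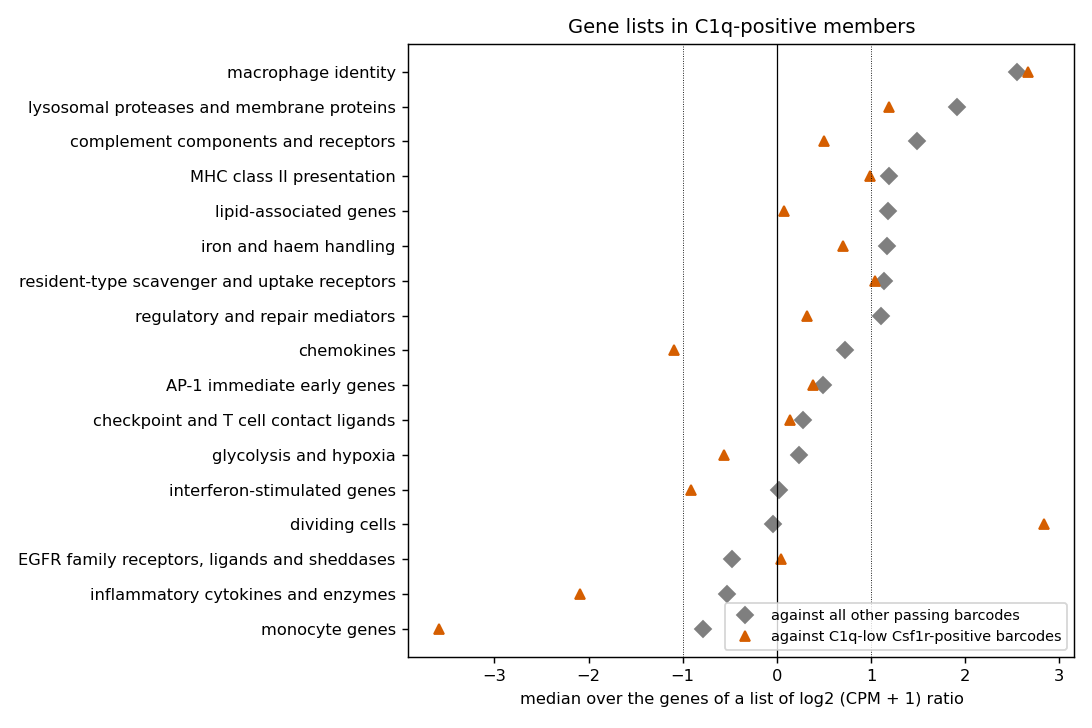
Median log2 ratio over the genes of each of 17 lists, for members against all other passing barcodes (diamonds) and against C1q-low Csf1r-positive barcodes (triangles). Dotted lines mark 2-fold. Monocyte genes sit at -0.78 in the first comparison and -3.59 in the second, and dividing-cell genes at -0.04 and 2.84.

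The 12 genes with the lowest ratios among those of at least 50 CPM in the other barcodes belong to other cell types. Barcodes with Cd3e, Cd79a, Epcam or much S100a8 and S100a9 were outside the members by rule. Retnlg, Stfa2l1 and Ngp are neutrophil genes, and Jchain, Mzb1 and Ly6d are genes of B and plasma cells. Mptx1, Mmp7, Cldn7, Cldn3 and Cldn4 are epithelial. Pglyrp1 is known from neutrophils, but its log2 ratio was smaller in size within libraries 3 and 4, at -4.14 and -4.77. Which of the other barcodes held its RNA was not tested. Retnlg was lowest at 4.93 against 695 CPM (log2 ratio -6.88). Within libraries 3 and 4, which hold most members, the epithelial log2 ratios were smaller: -0.14 and -0.08 for Mptx1, 0.19 and -0.89 for Cldn4, -0.28 and -1.06 for Mmp7, -0.66 and -1.96 for Cldn7 and -0.56 and -1.06 for Cldn3. Pooled over all libraries, Mptx1 was at -6.53 and Mmp7 at -6.44, Cldn7 at -6.07, Cldn3 at -5.96, Cldn4 and Pglyrp1 at -5.91 and Ngp at -5.92. Without library 1, Mptx1 went to -2.85 and Mmp7 to -5.84. Without library 2, Cldn7, Cldn3, Cldn4, Mmp7 and Pglyrp1 went to -4.71, -4.80, -4.83, -5.29 and -5.17. Without library 3, Ngp went to -5.17, Mptx1 to -7.33 and Mmp7 to -7.08, and without library 4 Cldn7, Cldn3, Cldn4 and Mmp7 went to -7.23, -6.88, -6.74 and -7.19.

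RNA of other cell types was present at low levels in the members. Summed over each fixed marker list, members had 90.9 CPM for 8 neutrophil genes (2172 in the other barcodes), 53.0 CPM for 9 T cell genes (842), 1175 CPM for 9 B and plasma cell genes (92618), 115 CPM for 10 dendritic genes (549) and 42.1 CPM for 9 epithelial genes (1531). NK, mast, and erythroid lists stood at 16.0, 45.5 and 23.3 CPM, with Ncr1, Prf1 and Slc4a1 among the genes at 0, and fibroblast and endothelial genes at 58.3 CPM against 65.5 CPM. Between libraries 3 and 4 the members' sums ran from 94.8 to 88.9 CPM for neutrophil genes, from 784 to 1343 for B and plasma cell genes and from 49.7 to 38.3 for epithelial genes, and stood at 20.6 and 56.2 for mast and basophil genes and at 4.49 and 29.6 for erythroid genes. Of the members' T cell sum, 39.5 CPM were Cd4, which gut macrophages are also known to express. Without Cd4 the other 8 T cell genes summed to 13.5 CPM in members against 807 CPM in the other barcodes. Jchain, of plasma cells, was seen in 14.8% of members after thinning, in 12.5% of C1q-low, 10.9% of dendritic, 22.8% of Cd79a-positive and 24.1% of neutrophil-gene barcodes. Neutrophils should lack it, and the source of the members' share was not tested. Ms4a7, by contrast, was seen in 53.5% of thinned members (77.2% unthinned) against 1.49% of C1q-low and 3.32% of Cd79a-positive barcodes. In all, 1094 members (74.8%) held at least 1 UMI of Cd3d, Cd3g, Trac, Cd79b, Ms4a1, Jchain, Krt8 or Krt18. Without these and the deepest 5% of members, 361 members were left, and the counts of called genes given here moved by less than 1.5 times.

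The nearest comparator was a set of 957 barcodes under the same filter and exclusions with less than 0.1% C1q, at least 1 UMI each of Csf1r and Lyz2 and none of Flt3. Set against these C1q-low Csf1r-positive barcodes, members had more lysosomal, class II, uptake and dividing-cell RNA and far less RNA of monocyte and inflammatory genes. Depth was close, with a median of 11118 UMIs. C1q-low barcodes held more RNA of some other cell types, with summed markers of 1234 against 23.3 CPM for erythroid genes, 520.4 against 45.5 CPM for mast and basophil genes, 235 against 115 CPM for dendritic genes and 169 against 90.9 CPM for neutrophil genes, and their part in the differences was not tested. Among 12350 genes, 2359 passed 2-fold upward in members (19.1%) and 741 downward (6%), with a median log2 ratio of 0.39. Higher genes made up 76.1% of those called, and 55.4% when 10 CPM in place of 1 was added to each side.

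The largest positive ratios were those of genes that were almost empty in C1q-low barcodes. Ccl8 was at 493 against 3.28 CPM (log2 ratio 6.85, counting SE 0.19), H2-M2 at 156 against 0.386 CPM from 4 UMIs (6.82, SE 0.20) and Olfml3 at 149 against 0.675 CPM (6.49, SE 0.22). Adamdec1, Fcrls, Ms4a7, Mmp2, C6 (a terminal complement protein), Hpgds (prostaglandin D synthase), Gbp2b, Tlr12, Gpr34 (a lysophospholipid receptor), Ptgs1, Dnase1l3 (a secreted DNase) and Cadm1 followed, from 5.24 to 6.39. All 15 were at least 2-fold higher within libraries 3 and 4, at 4.90 to 7.52 and 4.89 to 6.71. Without library 4, Dnase1l3 went from 5.25 to 6.23, Fcrls from 6.39 to 7.25, H2-M2 from 6.82 to 7.52 and Cadm1 from 5.24 to 5.86.

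Genes of blood monocytes were among the 15 lowest. The lowest ratios were those of Ifitm6 (-4.92), Dmkn (-4.77) and Timp1 (-4.76). Plac8 was at 211 (205 to 218) against 3583 CPM (log2 ratio -4.08), Ly6c2 at 18.3 against 396 CPM (-4.36), Vcan, versican, at 6.05 against 108 CPM and Chil3, a chitinase-like protein, at 51.1 against 701 CPM. Hp (haptoglobin), Cd177, Ace and Lrg1 were also among the 15, with Slpi and Serpinb2, which like Timp1 are inhibitors of proteases. Mcpt1, a mast cell protease, was the 1 gene that lost its call: it went from -4.42 to -0.89 without library 4. Without the same library Serpinb2 went from -4.55 to -5.97, Lrg1 from -3.91 to -5.41, Dmkn from -4.77 to -5.84 and Timp1 from -4.76 to -5.37, and without library 3 Lrg1 went to -3.20.

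**Figure D3:**
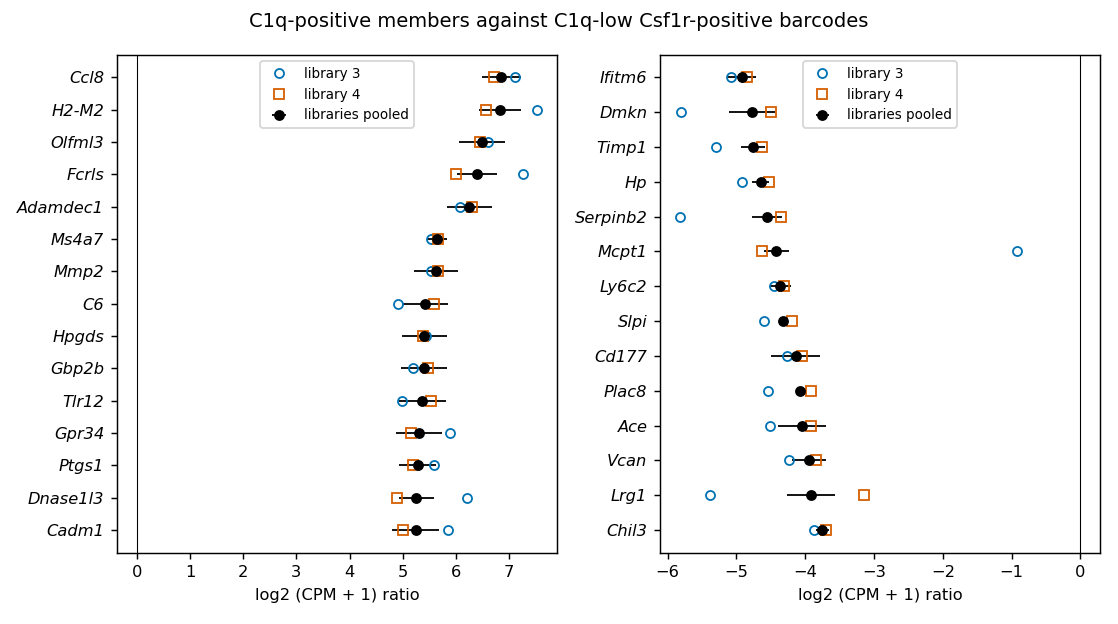
Log2 ratio of CPM plus 1 in members over C1q-low Csf1r-positive barcodes for the 15 highest and 14 of the 15 lowest genes. Filled points pool the libraries, with bars of 95% counting error, and open symbols give library 3 and library 4 alone. Ccl8 is at 6.85 and Ifitm6 at -4.92, and Mcpt1 stands apart, at -0.93 in library 3 and -4.64 in library 4.

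The lists followed the same division. Monocyte genes were lower in 11 of 12 (median -3.59), with Ccr2, the receptor for CCL2, at 161 against 449 CPM and Cd14 at 1102 against 3961 CPM. Inflammatory genes were lower in 10 of 12 (median -2.09): Il1b stood at 5100.5 against 18097 CPM, Ptgs2, cyclooxygenase 2, at 526 against 2270.5 CPM, Tnf at 265 against 832 CPM and Il6 at 16.2 against 164 CPM. Il18 and Nlrp3 were the 2 that fell short. Of 22 chemokines, 11 were lower and 6 higher, with Cxcl2 at 3624 against 15036 CPM and Cxcl10 at 364 against 1676 CPM on the low side and Ccl12 at 250.3 against 15.7 CPM on the high side. Interferon-stimulated genes were lower in 6 of 14 and higher in 2, Ifit2 and Ifit3.

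Lysosomal genes were higher in 11 of 18 and lower in none (median 1.19), and class II genes higher in 6 of 13 with 1 lower, Cd80 (65.4 against 147 CPM). Lipid-associated genes were nearly level as a list, with 5 of 16 higher and 2 lower (median 0.08, summed 7466 against 7442 CPM). Complement genes outside the rule were higher in 6 of 15 and lower in 1 (median 0.50). Of 12 macrophage identity genes outside the definition of the comparator, 8 were higher and none lower (median 2.66). Maf, a transcription factor of mature macrophages, stood at 215 against 23.1 CPM and Cx3cr1 at 437 against 58.9 CPM, while Itgam (-0.90) and Spi1 (-0.25) were below 0 without a call. Mrc1 was at 377 against 17.1 CPM and Stab1 at 301 against 38.2 CPM. Growth and repair factors went in both directions, 7 of 18 higher and 5 lower. Igf1 was at 55.7 against 0.868 CPM, Gas6, the ligand of AXL and MERTK, at 49.6 against 1.25 CPM, and Mmp13 at 223 against 18.3 CPM, whereas Arg1 was at 232 against 659 CPM, Il1rn at 560.3 against 1957 CPM and Cd274 at 150.3 against 481 CPM. Slc40a1, the iron exporter ferroportin, was at 42.7 against 1.06 CPM, and Nrg1, at 81.3 against 162 CPM, fell just short of a call (-0.99).

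Dividing-cell genes were higher in 10 of 12 against C1q-low barcodes (median 2.84). Top2a was at 54.1 against 2.60 CPM and Birc5 at 42.4 against 2.80 CPM. After thinning to 1000 UMIs, Mki67 was seen in 5.27% of members (4.14 to 6.60) and 2.02% of C1q-low barcodes (1.22 to 3.13), and in 0.643% of the neutrophil-gene barcodes. Mki67 or Top2a was seen in 93 of 1348 thinned members (6.90%, 5.6 to 8.39), at 6.02% in library 3 and 7.16% in library 4. In these 93, C1qa, a gene that chose the members, stood at 5666 CPM, against 5446 CPM in the other thinned members. Csf1r stood at 739 and 817 CPM. The 93 differed in Ccl8, at 153 against 525 CPM, Ccl17, at 1.28 against 36.6 CPM, and Spp1, at 162 against 522 CPM, and their median depth was 15488 against 12584 UMIs.

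Members varied widely along the C1q share itself. They were divided into 4 ranges of combined C1q: 184 members at 0.1 to 0.25%, 165 at 0.25 to 0.5%, 203 at 0.5 to 1% and 910 at 1% or more. Depth moved with the range, with medians of 1681, 4964, 9106 and 13889.5 UMIs, and so did the mitochondrial share, 5.31, 3.18, 2.83 and 2.94%, and the summed B and plasma cell markers, 2085, 1618, 1072 and 1092 CPM. Mast and basophil markers summed to 121, 36.2, 148 and 24.98 CPM, dendritic markers to 216, 125, 194 and 95.5 CPM and epithelial markers to 96.6, 53.9, 75.6 and 32.1 CPM. The 8 T cell genes other than Cd4 summed to 47.2, 25.9, 17.04 and 9.62 CPM. Their part in what follows was not tested.

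Of 14 macrophage identity genes, 12 were higher in each higher range. Apoe stood at 3034, 5409, 10954 and 27960 CPM from the lowest range to the highest, Ms4a7 at 147, 187, 530.3 and 1235 CPM and Adgre1 at 65.2, 85.7, 131 and 315 CPM. The exceptions were Itgam, which ran the other way at 285, 280.1, 211 and 159 CPM, and Mertk, out of order at 36.0, 55.4, 50.7 and 64.3 CPM. Monocyte and inflammatory genes named here were lower in each higher range. Plac8 stood at 1645, 825, 360.0 and 38.2 CPM, Ly6c2 at 160, 72.4, 26.6 and 2.83 CPM and Il1b at 12415, 10870, 9141 and 3433 CPM. The lowest range lay between the top range and the C1q-low barcodes for most of these: Apoe was at 1327 CPM and Plac8 at 3583 CPM in C1q-low barcodes. Between the lowest and the top range, 622 of 11752 genes were higher in the lowest range (5.29%) and 1836 lower (15.6%). Against that background 11 of 12 monocyte genes, 10 of 12 inflammatory and 9 of 14 interferon-stimulated genes were higher in the lowest range with none lower, and 8 of 14 identity, 11 of 18 lysosomal, 8 of 16 uptake and 10 of 12 dividing-cell genes were lower with none higher.

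Some genes did not follow the C1q share in order. Ccl24, an eosinophil chemokine, peaked in the second range, at 314, 1520, 273 and 165 CPM, and Mmp12 was at 1108, 553, 948 and 478 CPM. Msr1 was nearly level, at 243, 341, 299.7 and 340.0 CPM, and so was Cxcl16, at 682, 776, 802 and 779 CPM. Among thinned members, Arg1 was seen in 14.2, 20.0, 12.2 and 4.50% and Mrc1 in 12.4, 20.0, 28.4 and 37.6% of the 4 ranges. Mki67 or Top2a was seen in 5.31, 6.00, 6.60 and 7.32%, shares that rose in order but whose intervals overlap. By CPM the gap was wider. Of 12 dividing-cell genes, 10 were at least 2-fold lower in the lowest range than in the top one, summed at 180 against 472 CPM. The reason for this difference between measures was not tested.

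**Figure D4:**
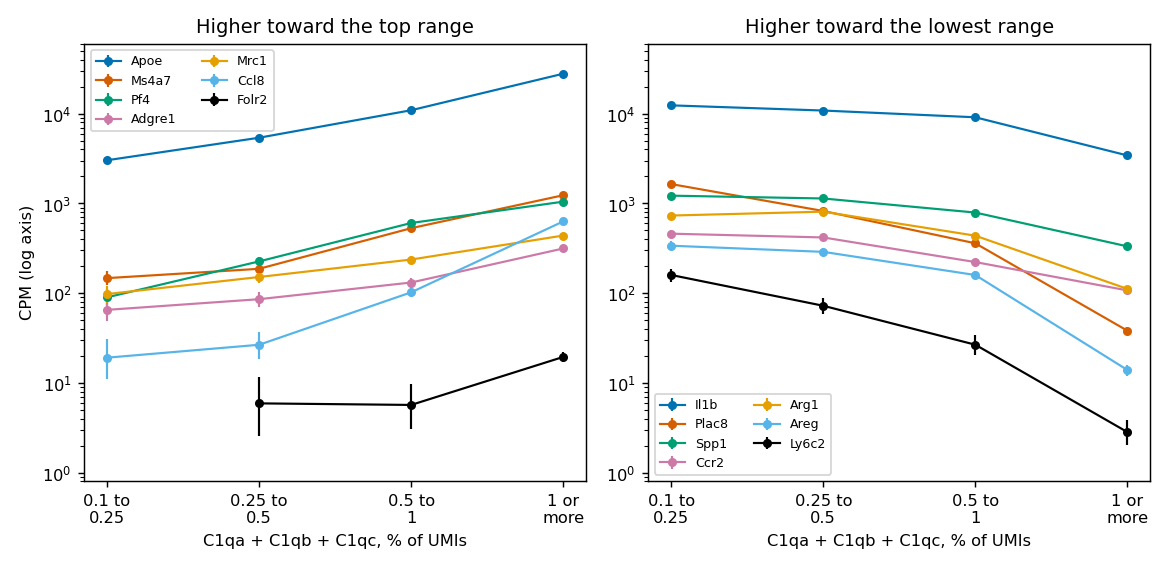
Levels in CPM (log axis) of 14 genes over 4 ranges of the combined C1q share of members, with exact Poisson 95% intervals. Apoe, Ms4a7, Pf4, Adgre1, Mrc1, Ccl8 and Folr2 are highest in the top range, where Apoe reaches 27960 CPM. Il1b, Plac8, Spp1, Ccr2, Arg1, Areg and Ly6c2 are lowest there, with Ly6c2 at 2.83 CPM. Folr2 has no point in the lowest range, where it had no UMI.

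Arg1, arginase 1 (chr10:24915221-24927484, minus strand), and Mrc1 were used to divide the members into sides. Of 1348 members thinned to 1000 UMIs, 98 held Arg1 and not Mrc1 (7.27%, 5.94 to 8.79), 422 Mrc1 and not Arg1 (31.3%, 28.8 to 33.9), 12 held both and 816 neither. Thinning leaves either gene unseen in many barcodes, so the 12 do not measure how far the sides overlap. Shares were alike in the larger libraries, with 6.30% and 7.67% on the Arg1 side and 30.4% and 31.7% on the Mrc1 side of libraries 3 and 4. Arg1 was seen in 0.787% and Mrc1 in 1.29% of thinned Cd79a-positive barcodes, against 8.16% and 32.2% of members. The Arg1 side had a lower C1q share, with a median of 0.567% against 1.59%, and was deeper, with a median of 15319 against 11451.5 UMIs. Its summed T cell markers were at 15.6 against 78.1 CPM, of which Cd4 made up 5.20 and 66.3 CPM, and the other 8 genes summed to 10.4 and 11.8 CPM. Erythroid markers summed to 0 CPM, where 3 counts allow 1.73 CPM, against 69.2 CPM and dendritic markers to 158 against 91.8 CPM. Its B and plasma cell markers were at 737 against 1415 CPM, and their part in the differences was not tested.

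Glycolysis genes, inflammatory genes and Spp1 were higher on the Arg1 side, and class II genes and Ccl8 on the Mrc1 side. Apart from Arg1 and Mrc1, 429 of 10624 genes passed 2-fold upward on the Arg1 side (4.04%) and 1593 downward (15%), with a median log2 ratio of -0.22. Higher genes made up 21.2% of those called, and 43.8% with 10 CPM added to each side. Spp1 stood at 2524 against 50.5 CPM (log2 ratio 5.61, counting SE 0.091). The EGFR ligand Areg stood at 261 against 4.72 CPM (5.52, SE 0.25), Cxcl3 at 1329 against 48.2 CPM (4.76) and Fn1, fibronectin, at 1358 against 63.5 CPM. Ass1, which makes the precursor of arginine, was at 778 against 35.0 CPM (4.43). Inhba, the activin A subunit, Ccl17, AA467197, Chil3, Olr1 (a receptor for oxidised lipoprotein), Hp, Upp1, Nt5e (CD73, which makes adenosine) and the clotting genes F3 and F10 completed the 15.

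The Mrc1 side had more Ccl8, at 1038 against 29.5 CPM (log2 ratio -5.09), and more Gas6 (104 against 8.09 CPM), Gpr34 (103 against 9.25 CPM), Hpgd, an enzyme that breaks down prostaglandins (110 against 3.47 CPM), Cd4 (66.3 against 5.20 CPM), Cp, Kcnj10, Slco2b1, Gbp2b and Slc9a9. Adgrl3 had no UMI on the Arg1 side and 26.5 CPM on the other, at least 15.3-fold lower by a floor of 3 counts over the group. Klra17, Siglec1, Sema6d and C4b rested on 1 to 3 UMIs on the Arg1 side. Cd4 is known from T cells and also from some gut macrophages. Among all thinned members 3.71% held a Cd4 UMI (2.77 to 4.86; 18.8% unthinned), against 0.106% of C1q-low and 0.281% of Cd79a-positive barcodes.

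All 30 genes kept their direction at 2-fold or more within library 3 and within library 4. The Arg1 side had 22 members in library 3 and 76 in library 4. Leaving out library 3 or 4 moved the size of many ratios by more than 1.5-fold. Inhba went from 4.12 to 8.27 without library 4 and to 3.40 without library 3. AA467197, Areg, Olr1, Cxcl3 and F3 went to 5.61, 6.76, 5.38, 5.47 and 4.48 without library 4, and Spp1 and Hp to 4.97 and 3.20. On the other side Ccl8 went to -3.78 without library 4 and -6.31 without library 3, and Gbp2b from -3.82 to -2.06 and -4.74. In the same order Cp went from -4.25 to -3.14 and -5.28, Hpgd from -4.63 to -3.56 and -5.40, Slco2b1 from -3.65 to -2.66 and -4.39, Gas6 from -3.53 to -2.54 and -4.19, and Gpr34 from -3.35 to -2.39 and -3.98. Areg went to 4.84 without library 3. Among the genes with 1 to 3 UMIs on the Arg1 side, Siglec1 went from -4.09 to -2.83 and -4.82, and without library 4 Klra17 went from -4.15 to -2.68, Sema6d from -3.82 to -5.21 and C4b from -3.72 to -5.24.

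**Figure D5:**
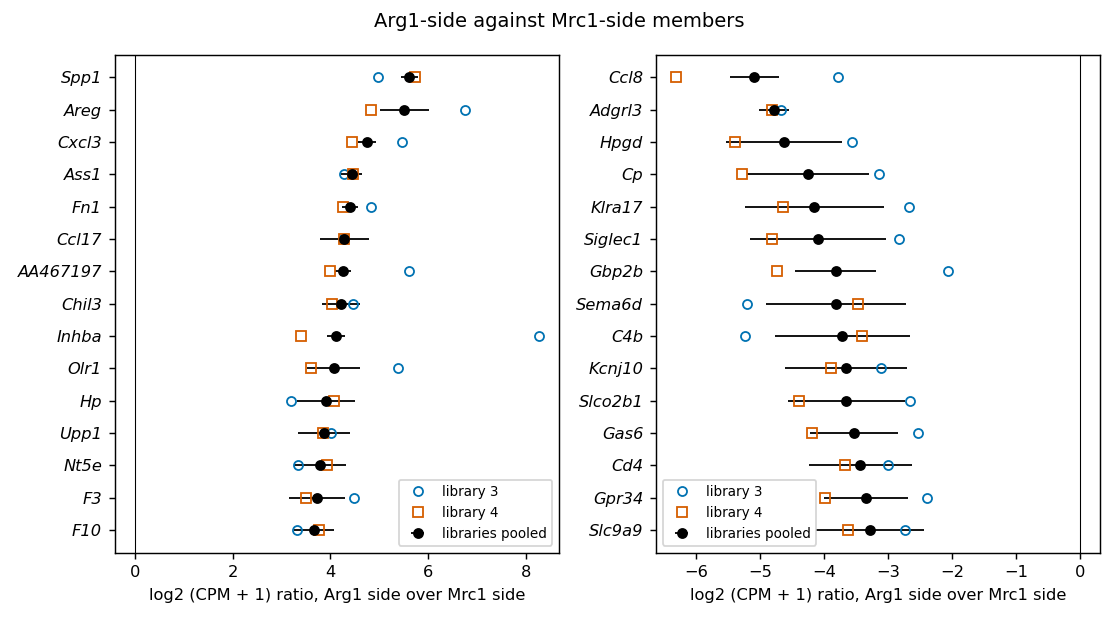
Log2 ratio of CPM plus 1 on the Arg1 side over the Mrc1 side of the members for the 15 highest and 15 lowest genes. Filled points pool the libraries, with bars of 95% counting error, and open symbols give library 3 and library 4 alone. Spp1 leads at 5.61, Ccl8 is lowest at -5.09, and Inhba spreads most, from 3.40 in library 4 to 8.27 in library 3.

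The lists separated the sides by function. Of 14 glycolysis and hypoxia genes, 12 were higher on the Arg1 side and none lower (median 1.90): Aldoa stood at 1267 against 314 CPM, Pgk1 at 665 against 139.8 CPM, Slc2a1, the glucose carrier GLUT1, at 241 against 38.5 CPM and Bnip3 at 151 against 23.2 CPM. Inflammatory genes were higher in 10 of 12, with Il1b at 8800 against 2945 CPM and Nos2 at 49.7 against 2.16 CPM, and lower in 1, Il18. Monocyte genes were higher in 7 of 12 and lower in 2 (F13a1 and Itga4). Class II genes were lower in 7 of 13 and higher in 1, Cd80, with Ciita, their master regulator, at 25.4 against 138 CPM and H2-Ab1 at 3949 against 8543 CPM. Uptake receptors outside the split were lower in 6 of 15 and higher in 1, Cd36 (64.2 against 23.4 CPM). Lysosomal genes had no call in either direction among 18 (median -0.31), and Trem2 was at 232 against 261 CPM. The identity genes Ms4a7 (366 against 1453 CPM) and Maf (72.8 against 360 CPM) were lower on the Arg1 side, while Spi1 (395 against 397 CPM) and Lyz2 (9853 against 10783 CPM) were alike.

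The 816 members with neither gene after thinning lay between the sides. Spp1 was at 387 CPM in them, Ccl8 at 322 CPM, Ms4a7 at 937 CPM and Apoe at 21677 CPM, and their median C1q share was 1.27%. Thinning leaves Arg1 or Mrc1 unseen in many barcodes that held it, since before thinning 19.9% of all members had an Arg1 UMI and 73.1% an Mrc1 UMI.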

How the data were processed

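Cells of digested colon polyps were stained for CD45 and EPCAM, sorted and profiled with a droplet kit that counts transcript ends, per the labels' protocols. The deposited matrix holds raw UMI counts of 31053 genes in 18026 barcodes, which the authors obtained from Cell Ranger 3.0.2 and the mm10 build, per the submitters' processing notes. Its 4 barcode suffixes were pooled, since nothing assigns them to the 4 samples, and 14198 barcodes passed the filter. UMIs were summed over barcodes and divided by the summed total (CPM). A gene was called when log2((CPM + 1)/(CPM + 1)) was at least 1 in size and the higher side had at least 10 UMIs. Levels carry exact Poisson and shares exact binomial 95% intervals, and ratios a delta-method SE, all for counting error only. Shares were taken after thinning each barcode to 1000 UMIs, leaving out shallower ones (114 members). No doublet caller was run. An alternative left out members with the highest 5% of UMIs or a UMI of another lineage.

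The named genes are the 25 highest against all other barcodes with at least 100 UMIs in members, the 12 lowest with at least 50 CPM outside them, and 15 each way against C1q-low barcodes and between the Arg1 and Mrc1 sides with at least 100 UMIs on the higher side. Genes of the rule, ribosomal, mitochondrial, haemoglobin, immunoglobulin, T cell receptor, sex-linked marker and predicted genes were left out. Single genes given as examples outside this rule come from the fixed lists, and Ccl24, Msr1, Cxcl16 and Mmp12 over the C1q ranges, and the genes given for dividing members, were chosen after their values were seen. Members, lists and named-gene rule were all chosen with earlier results of these data known. Of 327 listed genes, 326 were found. Some genes of the lists are not reported here by name. Alternatives changed the pseudocount, UMI minimum, filter limits, averaging, comparator, split and libraries. Python 3.11.15, numpy 2.4.6, scipy 1.17.1, pandas 2.3.3 and matplotlib 3.10.9 were used, and the calculations were tested on simulated data.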

Additional observations from a re-analysis of the deposited data

Results flagged for a closer look

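Outside the filter, 171 of 3828 failing barcodes met every other clause that defines the C1q-positive macrophages, 170 of them above the mitochondrial limit of 20%. They drew attention because they are a signal in barcodes that no comparison used. Counting them would add 11.7% to the 1462 members.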

How the results depend on the processing

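No paired analysis was possible because the matrix carries no replicate numbers and its libraries are not assigned to samples. All 1335 values of 97 named-gene ratios under the alternatives kept their sign, and 668 of 697 list medians did. Members numbered 1567 and 1311 with C1q limits of 0.05% and 0.2%, 1349 and 1578 with S100a8 and S100a9 limits of 0.05% and 1%, 1300 with a mitochondrial limit of 10% and 1348 with a minimum of 1000 UMIs. Counts of called genes moved most with the pseudocount. Adding 10 CPM gave 475 higher and 745 lower against all other barcodes (38.9% higher, 27.0% with 1 CPM), 508 and 409 against C1q-low barcodes, and 245 and 315 between the Arg1 and Mrc1 sides. Adding 0.1 CPM gave 5074 lower against all other barcodes. Dividing members on all UMIs gave 2417 lower on the Arg1 side. Leaving out each library gave 915 to 1151 higher and 2061 to 3431 lower against all other barcodes, 2357 to 2447 and 707 to 745 against C1q-low barcodes, and 379 to 468 and 1437 to 1660 between the sides. Median-ratio scaling, added after seeing the data, changed no count by 1.5 times. Differences for genes of few UMIs, such as C1s1 and C2, are limited by depth.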

Other observations

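Immediate early and heat shock genes, which respond quickly to handling and stress as well as to signals in tissue, were measured as a quality list. Of 12, 4 were called higher in members than in all other passing barcodes (Fos, Fosb, Hspa1a and Hspa1b) and none lower, with a median log2 ratio of 0.49. Hspa1a, a heat shock protein, stood at 550.1 CPM against 194 CPM, with 566 CPM in library 3 and 542 CPM in library 4, and at 231 CPM in C1q-low Csf1r-positive barcodes. Fos, a subunit of the factor AP-1, was at 1178 against 489 CPM. None of the 12 was called between the Arg1 and Mrc1 sides, or between the lowest and the top C1q range.

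Against the Flt3-positive dendritic barcodes, Gdf15, a stress-induced cytokine of the TGF-beta family, had no UMI there and 158 CPM in members, at least 178.5-fold higher by a floor of 3 counts over the group. The dendritic genes Fscn1 and Xcr1 were at 5.25 and 0.589 CPM in members and at 531 and 95.5 CPM in those barcodes.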
